A study of Mus musculus with 8 samples.

Results

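The 88 genes described here encode nuclear subunits, assembly factors and close paralogs of the mitochondrial respiratory chain. They are the rows whose symbols begin with Nduf, Uqcr, Cox4 to Cox8 or Atp5, or are Sdha, Sdhb, Sdhc or Sdhd, with pseudogene names marked -ps left out. They were taken by name alone from 19879 gene names in the count files. Complex I accounted for 43 of them, as 7 core subunits, 29 accessory subunits and 7 assembly factors. Complex II accounted for 4, complex III for 8, complex IV for 16 and complex V for 17. Atp5sl, which RefSeq names Dmac2, was placed in complex V by its symbol alone.

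The respiratory chain sits in the inner mitochondrial membrane. Complexes I and II pass electrons from NADH and succinate to ubiquinone, complex III passes them on to cytochrome c, and complex IV hands them to oxygen. Complexes I, III and IV pump protons, and complex V, the ATP synthase, uses the return of those protons to make ATP. Complexes I, III, IV and V also hold subunits encoded in mitochondrial DNA, so both genomes must contribute, while complex II is wholly nuclear. In bone marrow, quiescent stem cells are known for leaning on glycolysis, and red cell precursors for many mitochondria, which also make haem.

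RNA was measured in single sorted haematopoietic progenitor cells from bone marrow of mice labelled Mof heterozygous (Mof -/+) and of wild type mice. Mof, also named Kat8, encodes a histone acetyltransferase, and the labels do not give the allele, the strain, the age or the sex. Cells were frozen and turned into CEL-Seq2 libraries, which tag each RNA molecule once at its 3' end, so levels of different genes need no correction for length. The 8 libraries fell into 4 groups of 2, namely Mof -/+ plate2, wild type plate2, Mof -/+ HSC and wild type HSC. The series as a whole names 8 sorting gates, from stem cells to erythroid, granulocyte and megakaryocyte progenitors, but no label ties a plate2 well to a gate. The labels do not say whether the 2 libraries of a group stem from different animals. The p values therefore measure only the spread between libraries, which may be technical.

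Of 1536 barcodes, the 436 that held 1000 transcripts or more were used as cells. They numbered 48 and 46 in Mof -/+ plate2, 65 and 45 in wild type plate2, 68 and 68 in Mof -/+ HSC and 50 and 46 in wild type HSC. Of the 436, 19 lay outside the 96 barcodes that their library mostly used. Inside those 96 lay 45 and 46 cells of Mof -/+ plate2 and 54 and 41 of wild type plate2. Kept libraries held 630629 and 678528 transcripts in Mof -/+ plate2, 734550 and 424794 in wild type plate2, 244299 and 201147 in Mof -/+ HSC, and 99312 and 103075 in wild type HSC. Of these cells, 394 carried a barcode number that was also kept in another library, as is usual when every library draws on one barcode set. Summed stem cell markers made up 0.0603% to 0.0684% of transcripts in Mof -/+ plate2, 0.0807% and 0.132% in wild type plate2, 0.356% and 0.448% in Mof -/+ HSC and 0.349% and 0.385% in wild type HSC. The HSC libraries also held 9 wells marked as erythroid by the rule used further on, none of them in Mof -/+ HSC library 2. Kat8 itself had 9 and 12 transcripts in Mof -/+ plate2, 10 and 4 in wild type plate2, 1 and 2 in Mof -/+ HSC and 1 and 2 in wild type HSC. That is too few for the genotype test, so the genotype labels could not be checked on it.

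Together the 88 genes took about 1% to 1.5% of all transcripts. Their summed share was 1.451% and 1.539% in Mof -/+ plate2, 1.214% and 0.997% in wild type plate2, 1.348% and 0.97% in Mof -/+ HSC and 1.251% and 1.342% in wild type HSC. The 2 Mof -/+ plate2 libraries were the highest of the 8, Mof -/+ HSC library 2 the lowest, and the HSC groups overlapped. Mof -/+ HSC library 2 was also the only HSC library without an erythroid-marked well. Outside such wells the HSC shares lay closer together, at 1.042% and 0.97% in Mof -/+ and 1.061% and 1.028% in wild type. In such sums, fewer cells of a type and less RNA per cell cannot be told apart. Each share had a 95% exact binomial (Clopper-Pearson) interval no wider than 1.272% to 1.414%, found in wild type HSC library 2, and these intervals cover counting error only. Transcripts of at least 80 of the 88 genes were present in every library, with 87 and 85 in Mof -/+ plate2, 87 and 86 in wild type plate2, 84 and 85 in Mof -/+ HSC and 80 and 80 in wild type HSC.

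**Figure D1:**
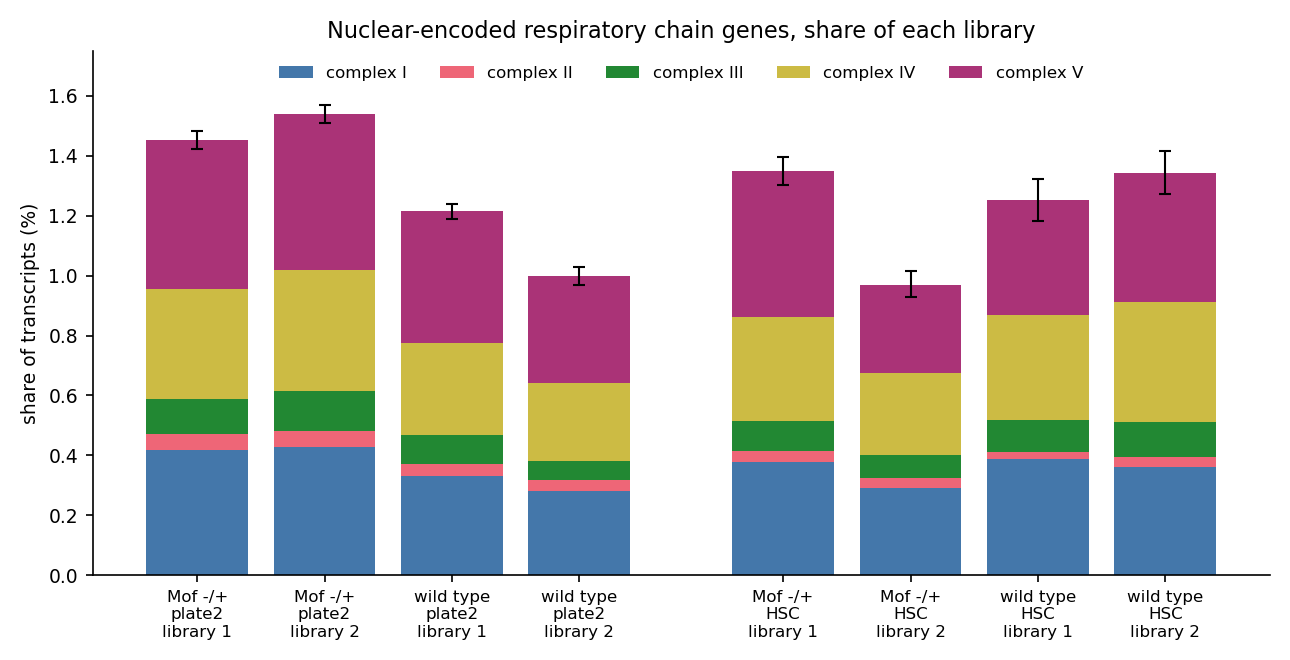
Share of all transcripts (%, y axis) that came from the 88 nuclear respiratory chain genes in each of the 8 libraries (x axis), stacked by complex; error bars are 95% exact binomial intervals of the total and cover counting error only. The Mof -/+ plate2 libraries reach 1.451% and 1.539%, against 1.214% and 0.997% in wild type plate2, and complexes I, IV and V make up most of every bar.

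The division among the complexes was much the same everywhere, apart from complex II. Complex I took 28.72% and 27.76% of the member transcripts in Mof -/+ plate2, 27.36% and 28.29% in wild type plate2, 28.05% and 30.09% in Mof -/+ HSC and 30.998% and 26.99% in wild type HSC. Complex V took 34.26% and 33.76% in Mof -/+ plate2, 36.16% and 35.59% in wild type plate2, 36.04% and 30.55% in Mof -/+ HSC and 30.76% and 32.05% in wild type HSC. Complex IV lay between 25.2% and 29.7% in all 8 libraries. Complex III, which includes the Rieske protein gene Uqcrfs1, held 6.43% to 8.9%. Complex II held 3.84% and 3.48% in Mof -/+ plate2, 3.35% and 3.73% in wild type plate2, 2.7% and 3.54% in Mof -/+ HSC and 1.93% and 2.39% in wild type HSC.

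The genes of highest mean level over the 8 libraries were, in transcripts scaled to a library total of 1000000 (CPM), Cox8a at 649.1, Atp5b at 562.8, Cox7a2l at 546.7, Atp5g2 at 488.6 and Atp5g1 at 479.8. This order did not hold in plate2, where Atp5b lay between 586.3 and 813.7 CPM, Cox8a between 358.1 and 450.5 CPM and Cox7a2l between 183.7 and 215.1 CPM. Cox8a is a small structural subunit of cytochrome c oxidase, Atp5b is the catalytic beta subunit of ATP synthase, and Atp5g1 and Atp5g2 both encode the c subunit of its rotating ring. In complex I the highest were Ndufa12 at 292.0 CPM and Ndufc2 at 240.9 CPM, both accessory subunits, in complex II Sdha at 204.5 CPM and Sdhc at 64.1 CPM, and in complex III Uqcrq at 252.1 CPM and Uqcrh at 198.4 CPM. Complex I assembly factors were scarcer, from 11.61 CPM for Ndufaf5 to 99.55 CPM for Ndufaf7. Paralogs of complex IV subunits known from muscle or testis were close to absent, with 3 transcripts of Cox6a2, 4 of Cox7a1 and 2 of Cox7b2 over all 8 libraries. Cox6b2, a paralog known from testis, was the exception, with 34.89 and 38.33 CPM in Mof -/+ plate2 and 36.77 and 25.9 CPM in wild type plate2.

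Promoters of respiratory chain genes are known for sites of NRF1, ETS family factors such as GABP, and YY1. RefSeq (GRCm38.p6) gave 81 promoters for 75 of the 88 genes, each running from 250 bases before to 50 bases after the start. On either strand, the NRF1 motif was present in 24.7% of them, against 4.6% of all 32851 promoters of the same length. The YY1 motif AAGATGGC was present in 14.8%, against 2.75% of all promoters, and the ETS motif CCGGAAGT in 6.17%, against 3.89%. At least 1 of the 3 was found in 43.2%, against 10.44% of all promoters, and a promoter can hold more than 1. A match is a description of the letters and does not show binding. The following 6 show 2 promoters for each motif, with the matched letters in capitals, read 5' to 3' on the gene's own strand, and they belong to genes described in the results.
Cox6a1 (minus strand, chr5:115348909-115349208, NRF1): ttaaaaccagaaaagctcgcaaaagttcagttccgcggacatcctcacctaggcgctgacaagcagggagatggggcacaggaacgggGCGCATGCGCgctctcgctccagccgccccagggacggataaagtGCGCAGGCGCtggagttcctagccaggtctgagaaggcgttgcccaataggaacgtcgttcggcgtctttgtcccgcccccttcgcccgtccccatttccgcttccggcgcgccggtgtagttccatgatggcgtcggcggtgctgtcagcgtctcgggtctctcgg
Atp5g3 (minus strand, chr2:73911277-73911576, NRF1): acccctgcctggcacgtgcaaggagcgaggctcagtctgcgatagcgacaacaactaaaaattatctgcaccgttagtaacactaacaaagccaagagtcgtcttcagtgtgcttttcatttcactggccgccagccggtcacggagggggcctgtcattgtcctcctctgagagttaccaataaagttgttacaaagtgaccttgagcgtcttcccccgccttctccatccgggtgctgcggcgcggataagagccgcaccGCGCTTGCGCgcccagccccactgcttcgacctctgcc
Uqcr11 (minus strand, chr10:80406772-80407071, ETS): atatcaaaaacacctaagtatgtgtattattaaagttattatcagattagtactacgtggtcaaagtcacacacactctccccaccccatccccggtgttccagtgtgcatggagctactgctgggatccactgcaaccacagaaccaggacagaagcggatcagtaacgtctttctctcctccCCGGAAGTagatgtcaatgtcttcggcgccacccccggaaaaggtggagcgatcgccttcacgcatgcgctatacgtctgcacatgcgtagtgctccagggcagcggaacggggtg
Cox8a (minus strand, chr19:7217567-7217866, ETS): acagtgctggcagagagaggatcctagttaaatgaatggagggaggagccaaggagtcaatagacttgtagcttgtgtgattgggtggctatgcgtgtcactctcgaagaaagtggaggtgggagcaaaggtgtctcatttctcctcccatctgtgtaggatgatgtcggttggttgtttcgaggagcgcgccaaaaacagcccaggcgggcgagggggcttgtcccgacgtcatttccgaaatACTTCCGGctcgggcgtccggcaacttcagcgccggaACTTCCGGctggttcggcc
Atp5j2 (minus strand, chr5:145191492-145191791, YY1): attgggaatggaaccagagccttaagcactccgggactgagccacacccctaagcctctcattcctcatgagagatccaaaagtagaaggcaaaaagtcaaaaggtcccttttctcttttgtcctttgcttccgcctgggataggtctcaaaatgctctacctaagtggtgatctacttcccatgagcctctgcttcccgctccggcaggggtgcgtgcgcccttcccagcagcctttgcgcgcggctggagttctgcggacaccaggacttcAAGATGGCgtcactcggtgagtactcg
Atp5f1 (minus strand, chr3:105959214-105959513, YY1): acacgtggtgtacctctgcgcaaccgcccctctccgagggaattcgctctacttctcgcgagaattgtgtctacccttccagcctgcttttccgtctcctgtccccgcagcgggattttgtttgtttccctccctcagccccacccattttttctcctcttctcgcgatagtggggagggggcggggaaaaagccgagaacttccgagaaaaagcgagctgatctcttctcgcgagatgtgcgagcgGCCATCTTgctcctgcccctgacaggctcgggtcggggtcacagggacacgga

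The first comparison asks whether Mof heterozygosity changes these genes. In the plate2 libraries the measured members ran higher in Mof -/+ than in wild type by a modest amount, and no single member passed the test. Of the 88 genes, 83 had enough transcripts to be tested, and 0 were called in edgeR's quasi-likelihood test at an adjusted p under 0.05, where 0.553% of all 6690 genes were called. At an unadjusted p under 0.05 there were 3 members, and DESeq2 also called 0. Counts at an unadjusted p are given, here and below, without the share of all genes. They therefore do not show whether the members stand out. A fold change above 0 on the log2 scale, meaning higher in Mof -/+, was found for 78 of 83 members, with a median of 0.32, while the median of all genes was 0.00. After TMM scaling, the library scaling used in the fit, 53 members (63.9%) had both Mof -/+ libraries above both wild type libraries, where 20.4% of all genes did. In plain CPM the count was 71 (85.5%), where 30.6% of all genes did, because leaving out TMM raises every plate2 genotype difference by 0.13 on the log2 scale.

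The complexes lay close together in this comparison. The median log2 difference, Mof -/+ over wild type, was 0.32 in complex I, 0.46 in complex III, 0.35 in complex IV and 0.25 in complex V, and the 4 complex II genes lay between 0.13 and 0.56. Within complex I, core subunits had a median of 0.34 and accessory subunits 0.36, while the 6 tested assembly factors had a median of 0.05. The 3 members at an unadjusted p under 0.05 were Uqcr11, Cox5a and Uqcr10. The member of smallest p in each complex is described next.

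Uqcr11, a small subunit of complex III, had 142.8 and 131.2 CPM in Mof -/+ plate2, against 80.34 and 30.61 CPM in wild type plate2. The groups did not overlap, but the 2 wild type libraries lay far apart, and the log2 difference of 1.08 ± 0.35 (SE) did not pass (adjusted p = 0.41). Cox5a, a nuclear subunit of cytochrome c oxidase, had 207.8 and 227 CPM in Mof -/+ plate2 and 132.1 and 129.5 CPM in wild type plate2. The replicates of Cox5a lay close together in both groups, and the log2 difference of 0.59 did not pass either (adjusted p = 0.907). Sdhd, a membrane anchor of succinate dehydrogenase, had 157.03 and 145.9 CPM in Mof -/+ plate2 and 107.6 and 75.35 CPM in wild type plate2, a log2 difference of 0.56 (adjusted p = 0.978). In complex I the smallest p belonged to the core subunit Ndufs7, at 99.93 and 123.8 CPM in Mof -/+ plate2 against 61.28 and 68.29 CPM in wild type plate2 (log2 difference 0.66, adjusted p = 0.973). In complex V it belonged to Atp5k, the small e subunit of the ATP synthase, at 161.8 and 206.4 CPM in Mof -/+ plate2 against 137.5 and 89.48 CPM in wild type plate2 (log2 difference 0.53, adjusted p = 0.997). Complex V differences ran from 0.05 for Atp5g2 to that value, with the catalytic core subunits Atp5a1 and Atp5b at 0.07 and 0.12.

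The size of this shared offset moved with the libraries and with the weighting of cells. Leaving out each plate2 library in turn gave medians from 0.21, without wild type library 2, to 0.47, without wild type library 1. With every cell thinned to 1000 transcripts, only 20 members could be tested, and their median was -0.08. The summed share of the 88 genes after the same thinning was 1.146% and 1.307% in Mof -/+ plate2 and 1.051% and 0.891% in wild type plate2, so the groups still did not overlap. Among erythroid-marked wells alone, defined further on, the median was 0.18, and without them 0.28. They made up 25 of 94 Mof -/+ and 24 of 110 wild type plate2 wells. By transcripts, which the fit sums, the groups were further apart. Erythroid-marked wells held 316214 of 630629 and 262460 of 678528 transcripts in Mof -/+ plate2. In wild type plate2 they held 209231 of 734550 and 116758 of 424794. Cell depth and cell makeup also differed between these groups. Median transcripts per cell were 9820 and 12530 in Mof -/+ plate2 and 8727 and 8082 in wild type plate2. Predicted gene models named Gm took 11.55% and 9.353% of transcripts in Mof -/+ plate2 and 17.91% and 21.27% in wild type plate2. Of the remaining transcripts, the 88 genes made up 1.641% and 1.698% in Mof -/+ plate2 and 1.479% and 1.266% in wild type plate2. Mature neutrophil markers fell with genotype in 7 of 10 genes tested, with a summed share of 0.0381% and 0.0114% in Mof -/+ plate2 and 0.271% and 0.215% in wild type plate2, and of the 10 Retnlg, Lcn2, Ngp and Mmp9 were at 0 in both Mof -/+ plate2 libraries. The part of depth, gene models and neutrophil markers in the offset was not tested. Leaving out wells with mature neutrophil markers gave a median of 0.31. Leaving the gene models out of the library sizes gave 0.33. TMM scaling was still applied in that fit, so its median cannot show their part.

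In the HSC libraries no such offset was seen. There too 0 of 83 members were called, where 0.0149% of all genes were, and DESeq2 called 0. At an unadjusted p under 0.05 there were 14 members, again without the share of all genes beside them. The log2 difference was above 0 for 41 of 83 members, with a median of -0.03 against 0.03 for all genes. Libraries did not overlap, with Mof -/+ higher, for 15 members (18.1%, where 20.1% of all genes did), and with Mof -/+ lower for 17 (20.5%, where 17.1% did), after TMM scaling. The median was 0.22 without Mof -/+ library 2 and -0.16 without Mof -/+ library 1, and without the erythroid-marked wells it was 0.17. Leaving out Mof -/+ library 1 or wild type library 1 gave 1 call each.

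Single HSC members differed widely. Uqcrc2, a core subunit of complex III, had 10 and 14 transcripts in Mof -/+ HSC and 0 and 0 in wild type HSC. Against a floor of 3 transcripts over the wild type group, its level was at least 3.63-fold higher in Mof -/+. Sdhc, the other membrane anchor of complex II, had 14 and 15 transcripts in Mof -/+ HSC and 1 and 0 in wild type HSC, a ratio of 13.2 with a counting interval of 2.18 to 538. On the other side, Uqcrq had 241.6 and 154.1 CPM in Mof -/+ HSC and 413 and 407.6 CPM in wild type HSC, a log2 difference of -1.11 that did not pass (adjusted p = 0.26). Cox8a had 757.5 and 556.9 CPM in Mof -/+ HSC and 1088 and 1165 CPM in wild type HSC, at -0.85, again without overlap and without passing (adjusted p = 0.302). For Uqcrq and Cox8a, single wells weighed more in wild type HSC. In both wild type libraries the largest well held a larger part of their transcripts than in either Mof -/+ library. Mof -/+ HSC library 2 also held no erythroid-marked well, and the differences of Uqcrq and Cox8a without such wells are not given here. Median transcripts per cell were 2923 and 2979 in Mof -/+ HSC and 1601 and 1567 in wild type HSC.

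**Figure D2:**
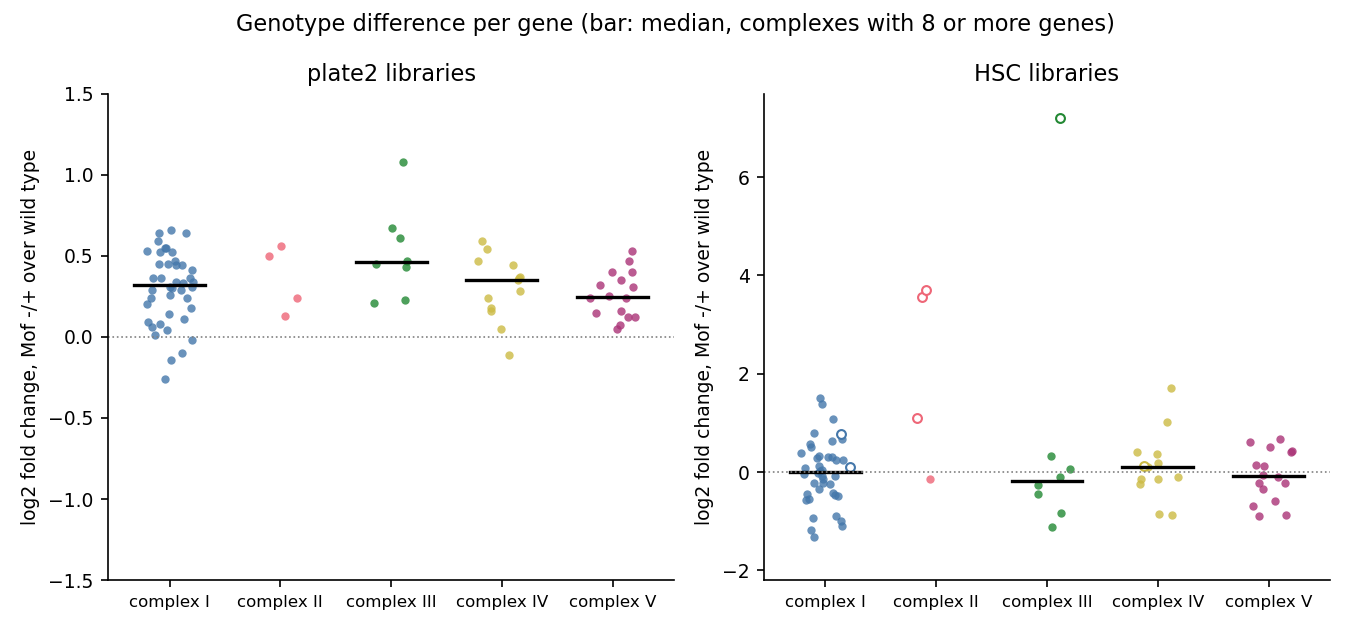
Log2 fold change of Mof -/+ over wild type (y axis) for the 83 tested genes by complex (x axis), in plate2 libraries (left) and HSC libraries (right, wider scale); each point is a gene, bars are medians, and open points have at most 3 transcripts in wild type HSC, so their fitted values are no measure of size. Most plate2 points lie above 0 with a median of 0.32, while HSC points lie on both sides with a median of -0.03.

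Across both plate sets, fitted together with plate set as a term, 0 members were called (0.135% of all genes were), with 8 at an unadjusted p under 0.05 and 0 by DESeq2, and the median difference was 0.21. The difference between the genotype effects, plate2 minus HSC, also gave 0 members, where 0% of all genes were called, with 12 members at an unadjusted p under 0.05 and 0 by DESeq2. Its median was 0.29 over members and -0.07 over all genes, and it was 0.07 without Mof -/+ HSC library 2. Libraries did not overlap in either set, with Mof -/+ higher in both, for 12 members (14.5%, where 3.86% of all genes did). These were Atp5f1, Cox5a, Cox7c, Ndufa6, Ndufa7, Ndufab1, Ndufb2, Ndufb8, Ndufs5, Sdhb, Sdhd and Uqcrc2. Sdhd belongs here by 1 transcript in each Mof -/+ HSC library against 0 in wild type HSC. In both sets 0 members were lower, where 3.17% of all genes were, but this was fixed by plate2, where 0 were lower. Members were higher in plate2 for 63.9%, and in HSC for 18.1%, where 20.1% of all genes were. The 14.5% therefore does not show that the 2 sets agree. Cox5a had 45.04 and 39.78 CPM in Mof -/+ HSC and 20.14 and 19.41 CPM in wild type HSC, where each wild type library held 2 transcripts. Ndufab1, the mitochondrial acyl carrier protein that is also a complex I subunit, had 168.1 and 148.9 CPM in Mof -/+ plate2, 106.2 and 120.1 CPM in wild type plate2, 118.7 and 69.62 CPM in Mof -/+ HSC and 40.29 and 29.11 CPM in wild type HSC.

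The second comparison sets the plate2 libraries against the HSC libraries within each genotype, and here single members did pass. In Mof -/+ cells 24 members rose in plate2 and 1 fell, where 11.9% of all genes rose and 10.3% fell. In wild type cells 19 rose and 5 fell, where 9.64% of all genes rose and 8.13% fell. The median log2 difference was 0.63 in Mof -/+ and 0.40 in wild type, against 0.04 and 0.08 over all genes, and setting Sdhd and Uqcrc2 at the bounds given for wild type left 0.40. Leaving out TMM scaling would add -0.20 to every difference in Mof -/+ and -0.24 in wild type. Plate set and sorting gate cannot be told apart, since the HSC libraries are named for the stem cell gate and the plate2 libraries for no gate. The plate sets also differed in other measures. Spike-in counts per cell were far higher in every HSC library than in any plate2 library. Predicted gene models named Gm took a smaller share of transcripts in every HSC library than in any plate2 library. The part of these gaps in the plate set differences was not tested. The 2 comparisons share no library, but they share the fitted spread of each gene and set the same plate sets side by side. In both, 17 members rose, which is 70.8% of those that rose in Mof -/+ and 89.5% of those in wild type. The same overlap was not counted over all genes, so these shares do not show whether members stand out.

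The members that rose in both genotypes were spread over all 5 complexes. In complex I they were Ndufa1, Ndufab1, Ndufb4, Ndufb6 and Ndufv2, of which the last is a core subunit with an iron-sulphur cluster. In complexes II and III they were Sdhb, Sdhd and Uqcrb. In complex IV they were Cox5a, Cox6a1, Cox6c, Cox7a2 and Cox7c, and in complex V Atp5b, Atp5f1, Atp5l and Atp5o. Cox5a had 207.8 and 227 CPM in Mof -/+ plate2 against 45.04 and 39.78 in Mof -/+ HSC, a log2 difference of 2.54 ± 0.35 (SE, adjusted p = 6.1e-05). In wild type it had 132.1 and 129.5 CPM in plate2 against 20.14 and 19.41 in HSC, at 2.97 (adjusted p = 0.000796). Cox7c, among the most abundant complex IV transcripts, had 463.1 and 567.5 CPM in Mof -/+ plate2 against 221.1 and 258.6 in Mof -/+ HSC (log2 difference 1.30), and 364.9 and 369.7 CPM in wild type plate2 against 130.9 and 9.705 in wild type HSC (2.66). The plate2 and HSC libraries of Cox5a and Cox7c did not overlap in either genotype, though wild type HSC held only 4 transcripts of Cox5a and 14 of Cox7c in all.

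Complex II changed its makeup between the plate sets. Sdhd, in 2 of 232 HSC wells kept, had 99 and 99 transcripts in Mof -/+ plate2 against 1 and 1 in Mof -/+ HSC, and 79 and 32 in wild type plate2 against 0 and 0 in wild type HSC. The Mof -/+ ratio was 33.7, with a counting interval of 9.2 to 280, and the wild type level was at least 6.46-fold higher in plate2, both past the test (adjusted p = 1.3e-05 and 0.00036). Sdhb, the iron-sulphur subunit, rose by 2.04 on the log2 scale in Mof -/+ and had 92 transcripts in wild type plate2 against 3 in wild type HSC, a ratio of 5.35 with a counting interval of 1.78 to 26.4. Sdhc passed in wild type, at 91 transcripts in plate2 against 1 in HSC (ratio 15.9, interval 2.78 to 634), and not in Mof -/+ (log2 difference 0.86, adjusted p = 0.0973). Sdha, the flavoprotein that holds the active site, went the other way without passing, at 174.5 and 162.2 CPM in Mof -/+ plate2 against 270.2 and 228.7 in Mof -/+ HSC, and 144.3 and 134.2 CPM in wild type plate2 against 201.4 and 320.3 in wild type HSC. Sdha therefore made up 31.3% and 30.3% of complex II transcripts in Mof -/+ plate2 against 74.2% and 66.7% in Mof -/+ HSC, and 35.5% and 36.1% in wild type plate2 against 83.3% and 100% in wild type HSC. The HSC shares rest on few complex II transcripts, 89 and 69 in Mof -/+ and 24 and 33 in wild type.

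The near absence of Sdhd from HSC libraries was uncommon among genes of its level. Of 3112 genes with a mean of at least 50 CPM in plate2, 17 (0.546%) had at most 3 transcripts over the 4 HSC libraries, and of the 76 members at that level Sdhd was the 1 that did. The gap was also there between erythroid-marked wells of both sets. In those wells Sdhd had 193.6 CPM in Mof -/+ plate2 against 17.91 CPM, from 1 transcript, in Mof -/+ HSC. In wild type it had 147.3 CPM in plate2 against 0 transcripts in HSC, where 3 transcripts would have been 66.21 CPM, and the fit of those wells alone gave an adjusted p of 0.00917. The Mof -/+ HSC values come from 1 library, since library 2 held no such well, so that comparison has no replicate check on its HSC side. The annotation that produced each file is not given in the sources used here, and whether it differed between the plate sets was not tested.

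**Figure D3:**
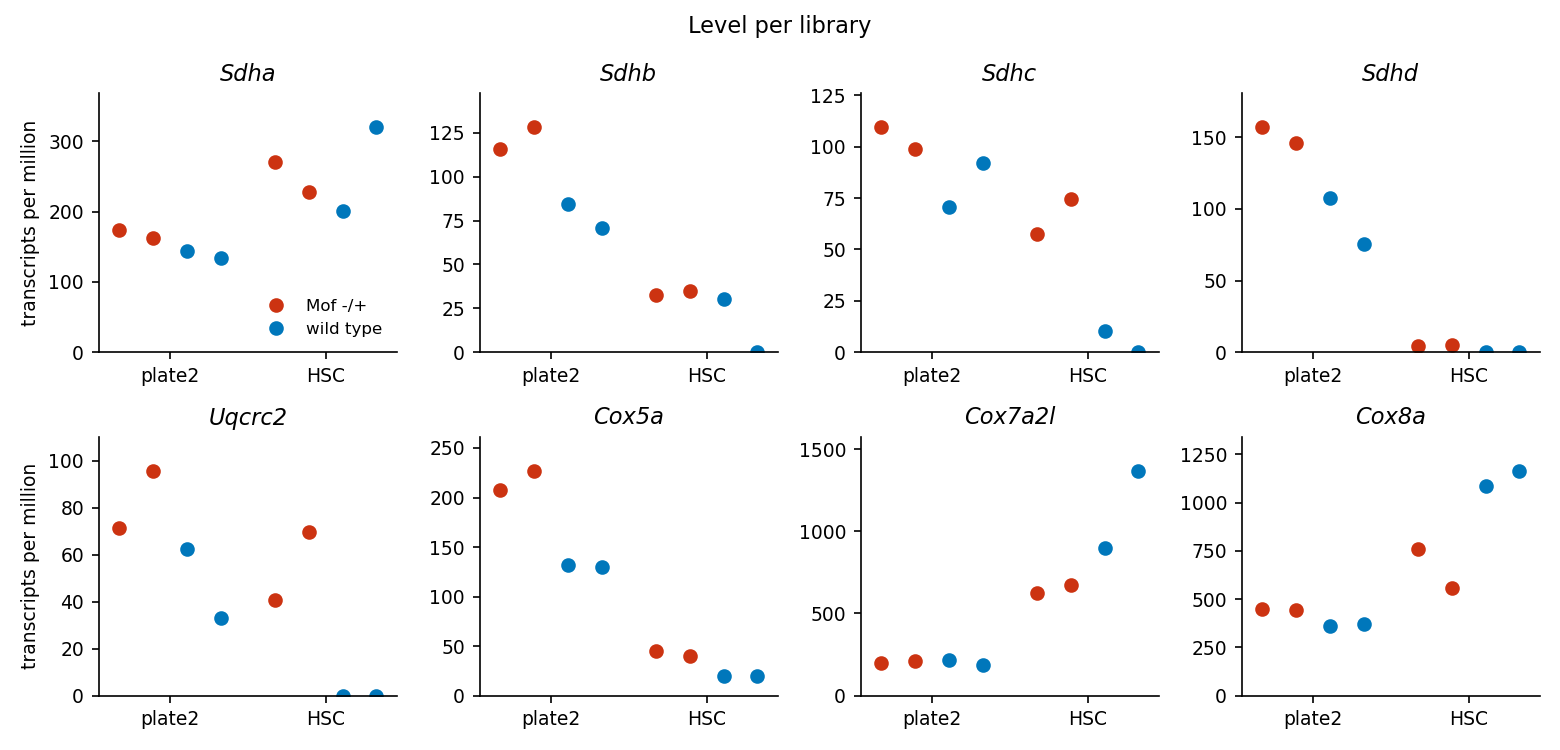
Levels in CPM (y axis, starting at 0, own scale per gene) of 8 genes in the 4 plate2 and the 4 HSC libraries; each point is a library, Mof -/+ in red and wild type in blue. Sdhd lies between 75.35 and 157.03 in plate2 and at or below 4.973 in HSC, while Cox7a2l and Cox8a lie higher in every HSC library.

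Cox7a2l fell in plate2 in both genotypes. It encodes a factor that joins complexes III and IV into supercomplexes. It had 198.3 and 209.3 CPM in Mof -/+ plate2 against 626.4 and 676.3 in Mof -/+ HSC (log2 difference -1.48, adjusted p = 0.00118). In wild type it had 215.1 and 183.7 CPM in plate2 against 896.4 and 1368 in HSC (-2.24, adjusted p = 3.1e-05). All 4 HSC libraries lay far above all 4 plate2 libraries. The other 4 that fell in wild type were Atp5sl (Dmac2 in RefSeq), Cox8a, Ndufa12 and Uqcrq, at -1.62, -1.37, -1.63 and -1.08. Their differences in Mof -/+ were -0.50, -0.36, -0.46 and 0.46, and none passed there. The test of the difference between these genotype effects, given above, called 0 members.

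Counts in these 2 comparisons moved with single libraries. The refit counts below are given without the share of all genes called, so they do not show whether members stand out. In wild type the 24 called members became 12 without HSC library 1, 9 without HSC library 2 and 10 without plate2 library 1. In Mof -/+ the 25 became 14 without plate2 library 2. Without the erythroid-marked wells of both sets 22 members were called in Mof -/+ and 21 in wild type, and within erythroid-marked wells alone the counts were 2 and 9. For that count of 2 the Mof -/+ HSC side is 1 library with 4 wells, which the fit assumes to vary like the other groups, while the wild type HSC side has 2 libraries with 5 wells in all. HSC cells were also shallower, and with every cell thinned to 1000 transcripts 20 members could be tested, of which 3 were called in Mof -/+ and 5 in wild type.

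The third comparison was added after the data were seen and looks within the plate2 wells, whose gates the labels do not give. A well was called erythroid-marked when at least 5 of every 1000 transcripts came from a list of 14 erythroid progenitor genes, none of them a respiratory chain gene. That held for 25 Mof -/+ and 24 wild type plate2 wells, out of 94 and 110. This class is a range of a score, not a cell type, and 20 plate2 wells lay between 4 and 6 such transcripts per 1000. Late erythroid genes rose with it in 5 of 5 tested, and 7 of 7 stem cell genes fell, as did 2 of 3 tested neutrophil progenitor genes.

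Respiratory chain genes of every complex were higher in the erythroid-marked wells. Their summed share was 1.751% in erythroid-marked wells against 1.149% in other wells in Mof -/+ plate2 library 1, and 2.029% against 1.23% in Mof -/+ library 2. It was 1.661% against 1.036% in wild type plate2 library 1 and 1.714% against 0.725% in wild type library 2. Erythroid-marked wells were thus higher in 4 of 4 libraries, and the lowest of them was above the highest of the other wells. The few erythroid-marked wells of HSC libraries showed the same order, at 2.378% against 1.042% in Mof -/+ library 1, 2.307% against 1.061% in wild type library 1 and 2.099% against 1.028% in wild type library 2. With every cell thinned to 1000 transcripts, the median count of member transcripts in the 4 plate2 libraries was 15.5 to 19 in erythroid-marked wells and 8 to 10 in other wells. Median depth was 24858 and 23371 transcripts in erythroid-marked against 7897 and 11680 in other Mof -/+ plate2 wells. In wild type plate2 wells it was 8099 and 2357 against 8727 and 8635. Mean depth, however, was higher in erythroid-marked wells of all 4 plate2 libraries. In HSC libraries median depth was 13297 against 2825 in Mof -/+ library 1. It was 7572 against 1601 in wild type HSC library 1 and 8999 against 1515 in wild type HSC library 2. The part of depth in the higher share was not tested. A higher share in erythroid-marked plate2 wells was not particular to the respiratory chain. Cytosolic ribosomal protein genes took 15.5% and 13.91% there against 11.72% and 13.18% in other Mof -/+ wells. In wild type wells they took 12.6% and 11.23% against 10.25% and 7.77%.

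With library as a term, 40 of 79 tested members rose and 0 fell, where 12.6% of all genes rose and 15.7% fell, and the median log2 difference was 0.62 over members and 0.01 over all genes. The difference was above 0 for 77 of 79. Every complex had calls, with 14 of 39 in complex I, 2 of 4 in complex II, 4 of 8 in complex III, 10 of 13 in complex IV and 10 of 15 in complex V. Leaving out each library in turn gave 29 to 32 calls, except 14 without Mof -/+ library 2, and medians from 0.53 to 0.63. A stricter mark of 10 in 1000 gave 5 calls and a median of 0.38, and thinning left 6 members to test, of which 2 were called. The shares of all genes called in these refits are not given here. The counts therefore do not show whether the loss of calls was particular to members.

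Cox6a1, the general form of subunit 6A of cytochrome c oxidase, had the smallest p. It had 664.3 CPM in erythroid-marked and 343.6 CPM in other wells of Mof -/+ library 1, 785.2 and 331.8 in Mof -/+ library 2, 717.2 and 245.6 in wild type library 1, and 822.6 and 207.8 in wild type library 2. All 4 erythroid-marked values exceeded all 4 others, and the log2 difference was 1.19 (adjusted p = 4.1e-05). Ndufs1, the largest core subunit of complex I, had 129.7 and 114.4 CPM in erythroid-marked against 63.63 and 43.27 CPM in other Mof -/+ wells, and 110 and 162.8 against 41.89 and 32.47 CPM in wild type wells (1.25, adjusted p = 0.00204). Cox5b had 493.5 and 564.1 CPM in erythroid-marked against 235.4 and 329.4 CPM in other Mof -/+ wells, and 506.8 and 497 against 247.5 and 133.1 CPM in wild type wells (0.93, adjusted p = 0.000651). Atp5b was at 977.5 and 1132 CPM against 645.8 and 565 CPM in Mof -/+ wells, and at 1167 and 1003 against 576.9 and 425.4 CPM in wild type wells (0.74, adjusted p = 0.000713). Atp5j2, the f subunit of the ATP synthase, was at 212 and 266.8 CPM against 98.62 and 189.9 CPM in Mof -/+ wells, and at 219.9 and 214.2 against 104.7 and 64.94 CPM in wild type wells (0.80, adjusted p = 0.00679). For each of these genes the 2 kinds of well did not overlap. Cox7a2l was not among the genes that rose, at -0.36 (adjusted p = 0.127), and neither were the assembly factors, of which 0 of 3 tested passed.

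**Figure D4:**
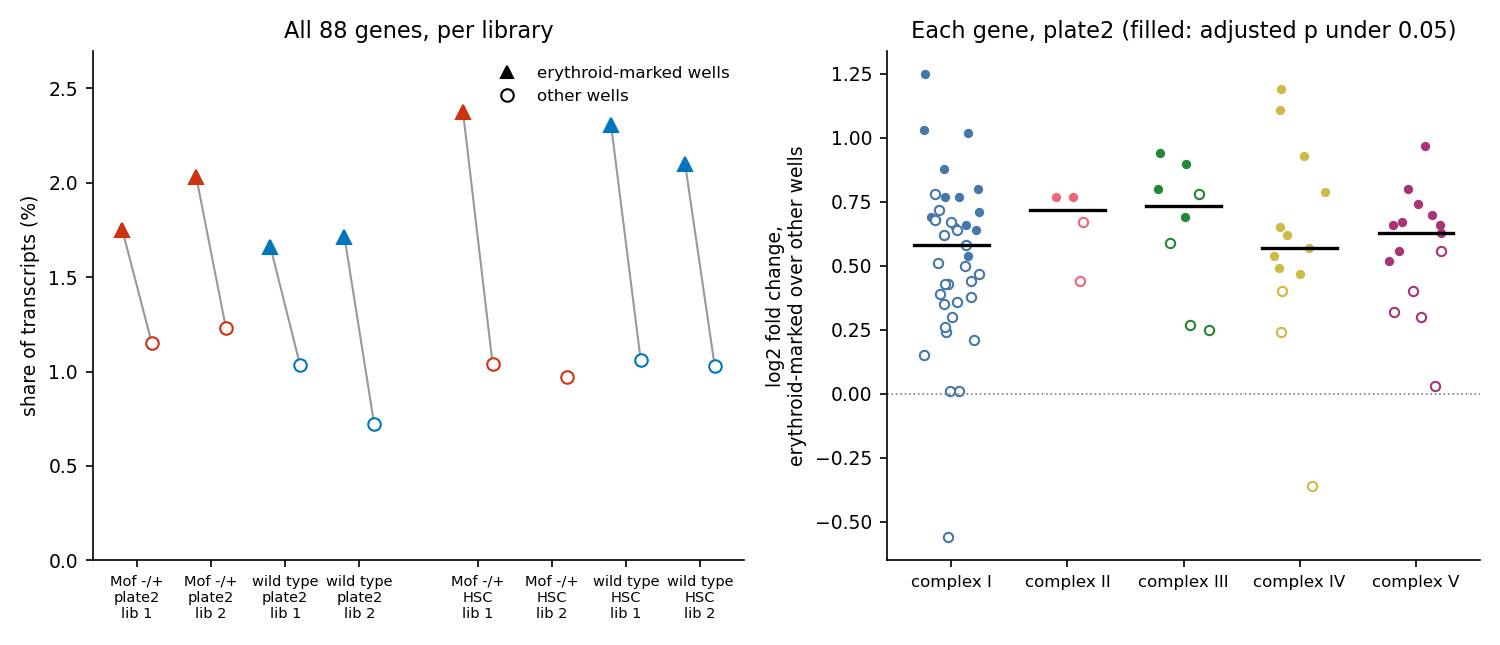
Left, share of transcripts (%, y axis) from the 88 genes in erythroid-marked wells (triangles) and other wells (circles) of each library (x axis), Mof -/+ in red and wild type in blue; right, log2 fold change of erythroid-marked over other plate2 wells (y axis) for 79 genes by complex, filled where the adjusted p was under 0.05, with medians as bars. Every library that held both kinds of well had the higher share in erythroid-marked wells, and 77 of 79 genes lay above 0.

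The 3 genes of the ATP synthase c subunit, which make the same mature protein, did not move together. Atp5g1 rose by 0.97 on the log2 scale (adjusted p = 0.000328) and Atp5g3 by 0.66 (adjusted p = 0.00446), whereas Atp5g2 differed by 0.03 (adjusted p = 0.917). Atp5g1 made up 40.4% and 38.1% of c subunit transcripts in erythroid-marked against 27.5% and 30.8% in other Mof -/+ wells, and 34.5% and 43.5% against 29.3% and 28.8% in wild type wells. Atp5g2 made up 26.7% to 29.95% in the erythroid-marked wells of the 4 libraries against 39.002% to 43.3% in the other wells, so these did not overlap. Atp5g3, at 26.6% to 37.8% and 27.9% to 31.95%, overlapped. The difference between these genes was singled out after its values were seen and was not itself tested.

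**Figure D5:**
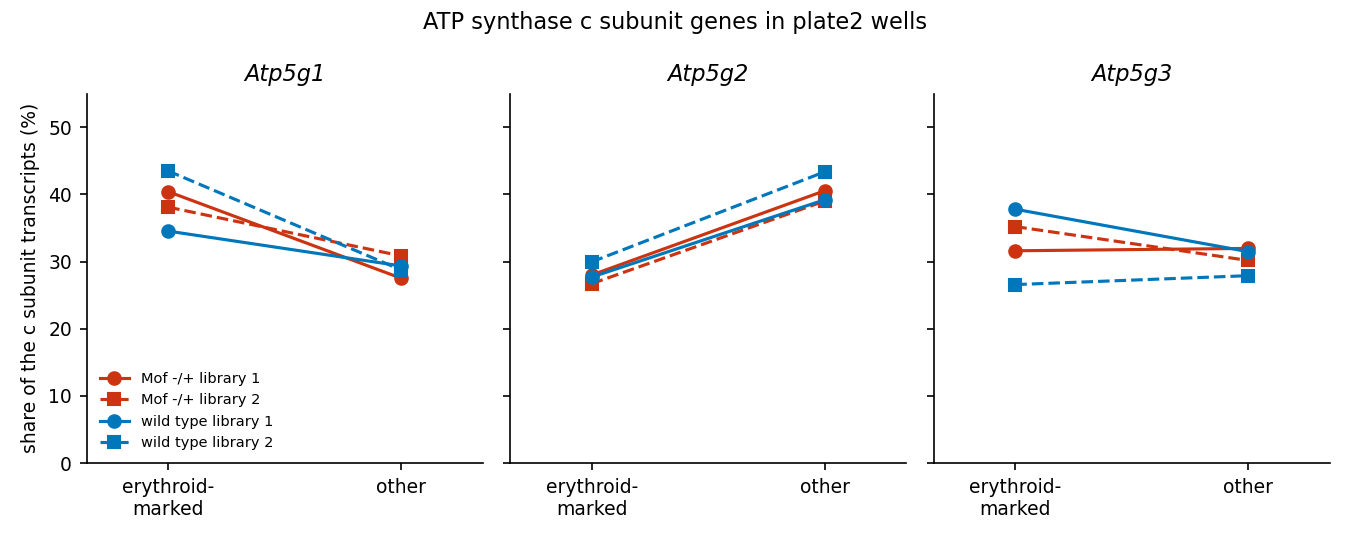
Share of the c subunit transcripts (%, y axis) from Atp5g1, Atp5g2 and Atp5g3 in erythroid-marked and other wells (x axis) of the 4 plate2 libraries; lines join values of 1 library. Atp5g1 is higher in erythroid-marked wells of every library and Atp5g2 lower, at 26.7% to 29.95% against 39.002% to 43.3%.

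Genes that work with the respiratory chain showed a mixed picture in the same wells. Of 16 tested electron carriers and partners 6 rose and 0 fell, among them Cyc1, the cytochrome c1 of complex III (log2 difference 1.36), Cycs, cytochrome c (0.87), and Atpif1, the inhibitor of the ATP synthase (1.20). Of 17 citric acid cycle genes 5 rose and 0 fell, including Dlat (1.33) and Cs, citrate synthase (0.81). Of 13 mitochondrially encoded genes 1 rose, mt-Nd1 (0.60), and 0 fell, with a median of 0.07. Of 11 glycolysis genes 1 rose, the hexokinase Hk1 (0.51), and 3 fell, including Pkm, pyruvate kinase (-4.13), and Pgam1 (-2.75). Of 4 tested biogenesis regulators 1 fell, Gabpb1, a subunit of GABP (-1.08), and of 14 tested genes from a list of assembly factors of all the complexes 1 rose, Cox17, a copper chaperone (0.85). Stress and RNA quality genes fell in 4 of 5.

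Between genotypes in plate2, 0 genes of the mitochondrially encoded, carrier, assembly, citric acid cycle, biogenesis and glycolysis lists were called. The 13 mitochondrially encoded genes had a median of -0.23 and the 83 tested nuclear genes one of 0.32, and nuclear member transcripts per 100 mitochondrially encoded ones were 31.9 and 31.7 in Mof -/+ plate2 against 25.6 and 19.2 in wild type plate2. The same ratio was 17.1 and 13.9 in Mof -/+ HSC and 18.997 and 16.4 in wild type HSC, where the groups overlapped. Between plate sets in wild type, 4 mitochondrially encoded genes rose and 3 fell, with mt-Nd6 at 3.43 and mt-Nd5 at -1.30, and in Mof -/+ 2 rose and 3 fell, with mt-Nd6 at 1.52. As for Sdhd, whether the annotation behind the files differed between the plate sets was not tested for these genes. Glycolysis genes rose in 2 and fell in 4 of 14 in wild type, with Pkm at -2.36 and Pgk1 at 7.51 ± 2.14 (SE). In Mof -/+ the difference of Pgk1 was 1.63 and did not pass. For Pgk1, too, a difference of annotation between the plate sets was not tested. Cytosolic ribosomal protein genes, measured beside the members, had a plate2 genotype median of 0.37 with 0 of 73 called, and rose in 35 of 73 between plate sets in wild type.

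The last comparison asked whether the members varied with position on the plate. No label ties barcode numbers to wells, so the 96 barcodes that each library mostly used were cut into 8 blocks of 12 consecutive numbers and summed per library and block. Of 54 plate2 members with enough transcripts 0 differed between blocks (0.291% of all tested genes did), with 1 at an unadjusted p under 0.05, and of 11 HSC members 0 did (0.748% of all tested genes did), with 2 at an unadjusted p under 0.05. No other tool was run on blocks. Member shares per block ran from 0.961% to 1.895% in Mof -/+ plate2, from 0.624% to 1.406% in wild type plate2, from 0.868% to 1.782% in Mof -/+ HSC and from 0.93% to 1.812% in wild type HSC. Erythroid-marked wells were few in each block, 0 to 3, so their number moved with block as well.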

How the data were processed

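Single cells were sorted, frozen and made into CEL-Seq2 libraries, per the labels' protocols. The values the authors deposited are expected counts for each gene in each barcode, estimated by the authors from whole numbers of distinct molecular identifiers and not scaled for depth. BWA 0.6.2-r126 and mm10 are named per the submitters' processing notes, while no annotation or counting program is given in the sources used here. The 70 spike-in rows stayed out of library sizes and tests, and rows without a gene name made up 0% of the counts.

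For each library the expected counts of its cells were added up and rounded to whole numbers. All genes that passed filterByExpr were scaled by TMM and put to edgeR's two-sided quasi-likelihood test (version 4.0.16, R 4.3.3) in a one-way layout of the 4 groups, and p values were adjusted by Benjamini-Hochberg over all genes tested. Plate set entered as a term for the effect over both sets, and library for the erythroid-marked wells. Alternatives used DESeq2 1.42.0, RLE size factors, no filter on low counts, at least 2000 transcripts per cell, cells thinned to 1000 transcripts, and each library left out. Doublets were not called, because sorting placed single cells.

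On simulated data with known changes, the fit recovered 25.8% of 2-fold and 95.0% of 4-fold changes in plate2 over 6097 genes, and 4.1% and 64.6% in HSC over 6072 genes. The 2 libraries of a group differed by more than counting error, with a chi-square divided by its degrees of freedom of 2.2 in Mof -/+ plate2, 3.09 in wild type plate2, 3.34 in Mof -/+ HSC and 4.47 in wild type HSC, where counting error alone gives about 1.

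Named are members that passed (up to 10 by p), the 2 of highest level and the 1 of smallest plate2 genotype p per complex, those whose genotypes did not overlap in both sets, and those with tissue-specific paralogs. The members and lists were chosen with earlier results of these data known. Gene coordinates and promoters came from GENCODE vM21 and RefSeq GRCm38.p6, and proteins were not used here.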

Additional observations from a re-analysis of the deposited data

Results flagged for a closer look

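Each library drew most of its transcripts from 96 barcodes, and the comparisons count the remaining barcodes only where they passed the minimum of 1000 transcripts. The remaining barcodes nonetheless held transcripts of the 88 genes. They numbered 499 over the Mof -/+ and 699 over the wild type plate2 libraries, and 527 over the Mof -/+ and 406 over the wild type HSC libraries, where a count of 0 would allow up to 3 per library. Among all transcripts in those barcodes the genes made up 1.337% and 1.204% in Mof -/+ plate2, 1.24% and 1.241% in wild type plate2, 1.283% and 1.175% in Mof -/+ HSC and 1.198% and 0.9936% in wild type HSC.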

How the results depend on the processing

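Of the recomputed counts of called members 87.59% stayed within 1.5 times and 18 did not, and of the medians 85.04% moved by less than the spread between libraries and 19 did not. For Mof -/+ over wild type in HSC libraries, 1 member was called in erythroid-marked wells alone, where the Mof -/+ side is 1 library, and 1 without the filter on low counts, against 0, and leaving out libraries gave 0 to 1. For the difference of genotype effects leaving out libraries gave 0 to 1. For plate2 over HSC in wild type, 24 calls became 15 with DESeq2, 12 with at least 2000 transcripts per cell, 5 with cells thinned to 1000 transcripts and 9 in erythroid-marked wells alone, and 9 to 25 with a library left out. In Mof -/+, 25 became 3 with thinned cells, 2 in erythroid-marked wells alone (again with 1 Mof -/+ HSC library) and 14 to 26 with a library left out. For erythroid-marked over other wells, 40 became 2 with thinned cells, where 6 members were tested, 5 with a mark of 10 in 1000 and 14 to 32 with a library left out. The difference of Uqcr11 between these wells turned to -0.22 with the mark of 10 in 1000. Of 543 values of single members, 512 kept their direction and call, 30 kept their direction and lost the call, and this 1 turned. Thinning and the smaller classes left fewer members to test, and no other cause was tested. The recomputed counts are given without the share of all genes called under the same setting. No fit of barcode blocks could be made on thinned cells, since no member was left.

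HSC library numbers did not pair the genotypes: the 2 number differences correlated at -0.0899 over 6690 genes. With the HSC replicate block, 0 members were called for genotype in HSC libraries and 0 over both sets. The range of barcodes a cell came from as a term, added after the data were seen, gave 22 calls between plate sets in each genotype. In HSC libraries 4.1% of simulated 2-fold changes were recovered, against 25.8% in plate2.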
